A study of Mus musculus with 7 samples.

Results

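The genes that encode voltage-gated sodium and calcium channels were read in neurospheres of control and Med23 CKO mice. Members were all rows of the deposited table whose symbol is Scn, a number and a or b, or begins with Cacna, Cacnb or Cacng. They numbered 39 of the 24346 genes of the table: 9 sodium channel alpha subunits, 4 sodium channel beta subunits, 10 calcium channel alpha1 subunits, 4 alpha2delta subunits, 4 calcium channel beta subunits and 8 gamma subunits. Of these, 25 had a mean of at least 0.5 FPKM over the 7 libraries and were tested, and 14 lay below that level. FPKM is the number of fragments normalized to transcript length and to the mapped fragments, so levels of different genes can be set side by side.

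A voltage-gated sodium channel is a single large alpha subunit that forms the pore and opens on depolarization, joined by small beta subunits that tune its gating and attach it to neighbouring cells. A calcium channel has a pore-forming alpha1 subunit, a cytoplasmic beta subunit that brings it to the membrane and an extracellular alpha2delta subunit that raises the number of channels at the surface. The gamma genes are named for a calcium channel subunit of skeletal muscle, but several of them encode TARPs, the auxiliary subunits that traffic AMPA-type glutamate receptors. In the hippocampus, sodium channels carry the action potential and calcium channels couple depolarization to transmitter release and to gene expression, and calcium channels are also present in progenitors of neurons and oligodendrocytes.

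Neurospheres were prepared from the hippocampus of single C57/BL6 mice and grown for 8 days. Med23 CKO mice carried floxed Med23 (exons 5 to 7) and Nestin-CreER, and their control littermates carried the floxed allele as Med23 flox/+ or Med23 flox/flox. Tamoxifen was given to both genotypes for 5 days (200 mg/kg each day), at 2 months by the labels and at 1 month for cultures by the study's methods. By those methods, the hippocampus for cultures was taken at 2 months of age. Nestin drives Cre in neural stem cells and, by the study's account, in endothelial cells as well. The 4 control libraries are from mice WT_215, WT_116, WT_213 and WT_220, and the 3 Med23 CKO libraries are from mice KO_117, KO_214 and KO_218. Xist, a transcript of female cells, was at 91.3 FPKM in WT_220 and 111 FPKM in KO_218, and at most 0.565 FPKM in the other libraries. Ddx3y, a Y-linked gene, was at 0.0735 and 0.574 FPKM in WT_220 and KO_218 and at least 11.9 FPKM in the others. By these genes each group held both sexes.

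Med23 itself had 11.4, 10.3, 12.9 and 10.1 FPKM in the control libraries and 9.97, 9.27 and 8.12 FPKM in the Med23 CKO libraries, in the order given above. All Med23 CKO values lay below all control values, and the log2 fold change was -0.26 ± 0.18 (SE; two-sided exact permutation p = 0.0571), and this FPKM covers exons outside the deleted ones too. Between 16841 and 18113 genes were above 0 in a library, correlations of log2(FPKM + 1) between libraries ran from 0.907 to 0.990, and the depth of the libraries is unknown. The labels call the cells primary NSCs. Markers of astrocytes and neural stem cells summed to between 916 and 2239 FPKM, but those of the oligodendrocyte lineage summed to between 2233 and 4501 FPKM. The neuron markers summed to between 93.8 and 216 FPKM, and Map2, at 24.2 to 147 FPKM, had the highest mean of them. Elavl3 ran from 16.0 to 27.4 FPKM, but Rbfox3 only from 0.847 to 4.23 FPKM and Dcx from 0.336 to 2.80 FPKM. The libraries thus held RNA of several cell types. No marker of the 7 lists read was at 0 in any library, and 0 passed an unadjusted p of 0.05 in limma.

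Promoters of 4 members are printed to show the sequence beside the most even genes of the set, Cacna2d1 and Cacng5, and beside Scn8a and Cacnb1, whose levels followed a library order described below. Each is the 250 bases before a RefSeq start of the gene on GRCm38.p6, printed 5′ to 3′ on the strand of the gene. Capitals mark an AP-1 motif (TGANTCA) or, on either strand, a GC box (GGGCGG), where these letters were present.
Cacna2d1, chr5:15934441-15934690, forward strand: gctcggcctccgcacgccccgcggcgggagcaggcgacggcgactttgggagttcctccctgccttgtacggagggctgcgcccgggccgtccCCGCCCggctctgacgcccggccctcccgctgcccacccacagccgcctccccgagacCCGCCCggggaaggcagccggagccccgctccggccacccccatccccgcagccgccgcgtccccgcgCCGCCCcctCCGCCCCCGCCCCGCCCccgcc
Cacng5, chr11:107915056-107915305, reverse strand: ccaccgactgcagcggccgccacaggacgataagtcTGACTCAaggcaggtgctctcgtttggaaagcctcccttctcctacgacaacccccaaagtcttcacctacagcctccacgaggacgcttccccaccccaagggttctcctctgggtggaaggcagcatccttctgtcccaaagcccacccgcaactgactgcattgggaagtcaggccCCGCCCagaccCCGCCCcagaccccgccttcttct
Scn8a, chr15:100870395-100870644, forward strand: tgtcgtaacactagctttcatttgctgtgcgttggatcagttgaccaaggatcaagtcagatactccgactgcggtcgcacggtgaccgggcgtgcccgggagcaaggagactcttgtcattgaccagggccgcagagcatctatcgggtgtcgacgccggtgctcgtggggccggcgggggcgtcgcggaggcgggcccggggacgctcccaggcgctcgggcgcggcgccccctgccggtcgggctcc
Cacnb1, chr11:98018373-98018622, reverse strand: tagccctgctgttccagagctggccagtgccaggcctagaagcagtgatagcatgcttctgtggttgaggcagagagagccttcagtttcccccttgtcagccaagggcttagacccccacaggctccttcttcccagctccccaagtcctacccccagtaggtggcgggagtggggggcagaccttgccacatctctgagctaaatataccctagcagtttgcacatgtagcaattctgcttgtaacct

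The Cacna2d1 window held 6 GC boxes, some of them overlapping, with a GC content of 82.4% and 36 CpG dinucleotides. That of Cacng5 held 2 GC boxes and 1 AP-1 motif at a GC content of 62%. The printed windows of Scn8a, at 68% GC and 30 CpG, and of Cacnb1, at 56% GC and 1 CpG, held none of the motifs searched. Scn8a, Cacnb1 and Cacng5 each have 2 windows, of which 1 is printed. The other window of Cacng5, at 56.8% GC and 2 CpG, held none of the motifs. The printed windows of Cacna2d1, Scn8a and Cacnb1 lie within the span of the gene, so they do not precede its outermost start. Over 32851 promoters of the same length the median GC content was 52.4% and the median number of CpG was 6. GC boxes were present in 13 of 28 windows of the members tested, against 32.7% of all promoters. The Ets motif CCGGAAG was present in 0 of the 28 against 6.91%, the CRE core TGACGT in 1 against 6.47%, the AP-1 motif in 1 against 6.75% and the TATA box TATAAA in 1 against 12.4%. These are matches of letters on both strands and say nothing of a factor.

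The levels of the 39 genes spanned from 0 to 113 FPKM. 7 members had a mean of at least 10 FPKM, 13 had a mean between 1 and 10 FPKM and 19 had a mean under 1 FPKM. The gamma subunit Cacng7 had a mean of 81.0 FPKM over the 7 libraries and the gamma subunit Cacng4 one of 45.3 FPKM, but Cacng4 varied so much between libraries that it lay above Cacng7 in WT_215. No member encoding a sodium channel pore reached 10 FPKM.

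**Figure D1:**
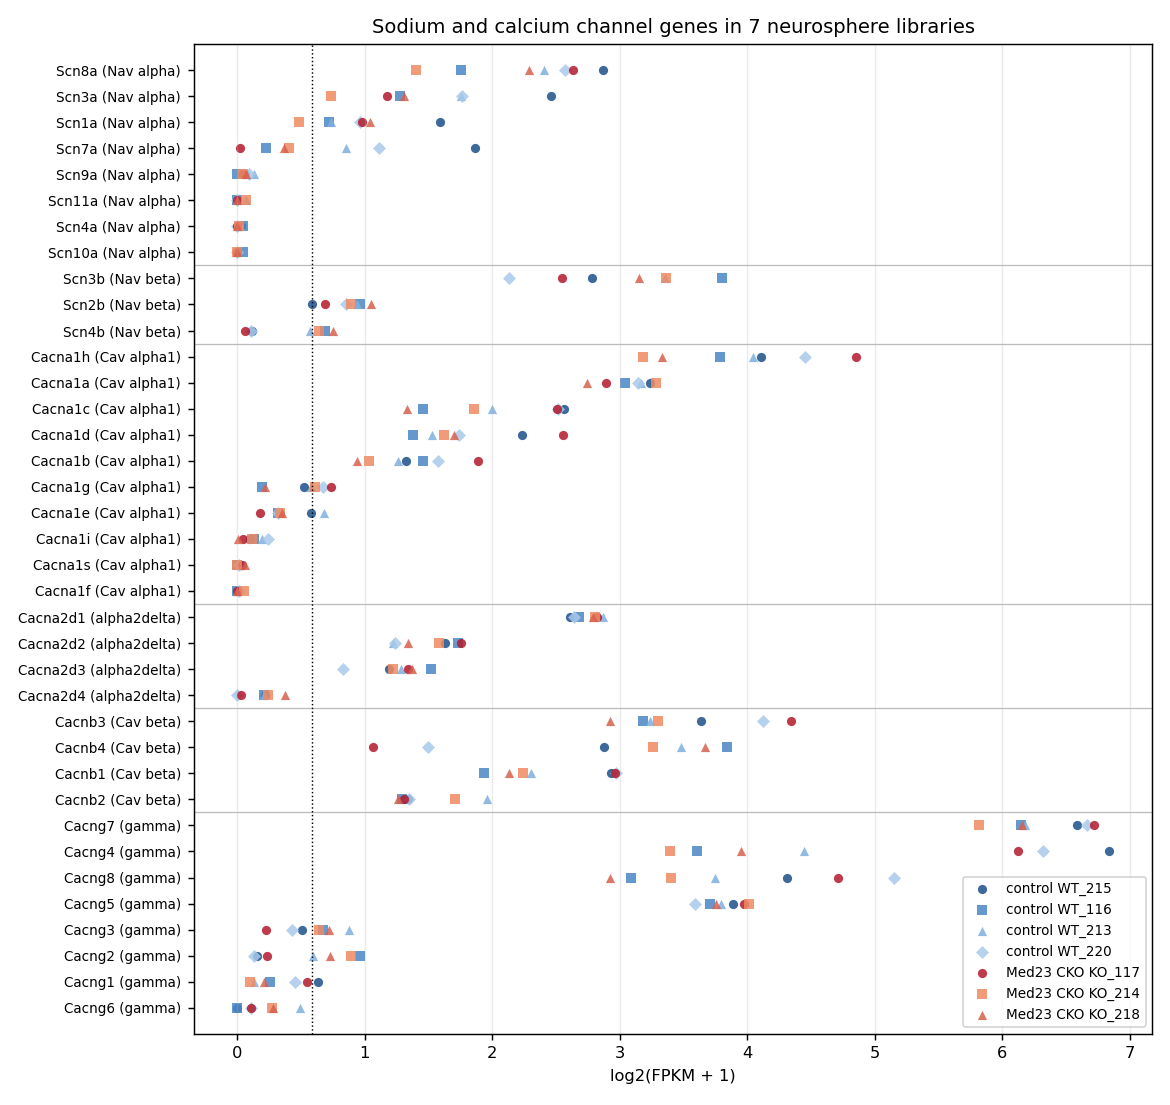
Level of 37 channel genes, log2(FPKM + 1), in the 4 control libraries (blue) and the 3 Med23 CKO libraries (red), ordered by subunit class and mean level. The dotted line marks 0.5 FPKM. Cacng7 and Cacng4 lie furthest to the right and the genes of skeletal muscle, sensory neuron and retinal channels lie at the left edge.

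Among the sodium channel alpha genes, Scn8a, which encodes the channel of nodes of Ranvier and axon initial segments, was highest and made up between 38.3% and 61.3% of their summed FPKM. Scn8a was at 6.30, 2.38, 4.29 and 4.94 FPKM in controls WT_215, WT_116, WT_213 and WT_220, and at 5.22, 1.64 and 3.88 FPKM in Med23 CKO KO_117, KO_214 and KO_218. The groups overlapped, and the log2 fold change was -0.29 ± 0.38 (SE; exact permutation p = 0.486), turning to 0.06 without KO_214. All 5 alpha genes tested had lower means in Med23 CKO, beside 56.2% of all genes tested. Of these 5, 4 had their highest value in WT_215 and 4 had their lowest in KO_214, and how far the direction of the class rests on those libraries was not tested. In KO_214 the microglia markers summed to 146 FPKM, against 6.10 to 33.6 in controls and 6.77 and 24.9 in the other Med23 CKO libraries. The endothelial markers summed to 112 there, against 9.47 to 59.9 in controls, and the mural markers to 438, against 15.6 to 121, and their part in the channel values of KO_214 was not tested.

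Scn3a, which encodes a sodium channel of the developing brain, was the only member to pass an unadjusted p of 0.05 in limma. It was at 4.50, 1.42, 2.38 and 2.39 FPKM in controls WT_215, WT_116, WT_213 and WT_220. In Med23 CKO it was at 1.26, 0.666 and 1.48 FPKM in KO_117, KO_214 and KO_218. Of the 4 control values, 3 lay above all Med23 CKO values, and WT_116 lay between KO_117 and KO_218. The log2 fold change was -0.74 ± 0.31 (SE; limma p = 0.0479, exact permutation p = 0.0857; -1.12 with a pseudocount of 0.1), and limma adjusted over all genes gave p = 0.9999. Without control mouse WT_215 the log2 fold change of Scn3a was -0.52, without Med23 CKO mouse KO_214 it was -0.57, and neither passed 0.05 in limma, whereas without WT_116 it was -0.92 and passed. It also did not pass with WT_213, WT_220, KO_117 or KO_218 left out.

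Scn7a, an atypical alpha gene linked to sodium sensing in glia, was at 2.65, 0.171, 0.809 and 1.16 FPKM in controls and 0.0174, 0.326 and 0.287 FPKM in Med23 CKO KO_117, KO_214 and KO_218. Only WT_116 among controls fell among the Med23 CKO values. The log2 fold change was -0.75 ± 0.38 (SE; exact permutation p = 0.143), and it was -1.84 with a pseudocount of 0.1 in place of 1. Without WT_116 it was -1.01 and passed an unadjusted p of 0.05 in limma. This gene was chosen after its values were seen. Scn1a, the channel gene of fast-spiking interneurons, ran from 0.398 to 2.01 FPKM, with overlapping groups. Scn9a, which encodes a channel of sensory neurons, was at most 0.0953 FPKM. Other genes of sensory neurons were at 0 in most libraries, Scn11a in 5 and Scn10a in 6, and the muscle gene Scn4a was at 0 in 3.

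Scn2a, the gene of the main alpha subunit of excitatory axons, is listed under the older symbol Scn2a1 and fell outside the selection, since that symbol ends in a digit. It was at 1.89, 2.67, 2.07 and 1.53 FPKM in controls and 0.959, 1.55 and 1.93 FPKM in Med23 CKO, and the groups overlapped. Scn3a and Scn2a are neighbours on chromosome 2 of GRCm38, 53.2 kb apart, and Scn1a, Scn9a and Scn7a follow each other there with gaps of 39.2 and 38.3 kb and no protein-coding gene between.

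Of the 4 sodium channel beta genes, whose small proteins tune gating, Scn3b was at 5.86, 13.0, 9.21 and 3.39 FPKM in controls WT_215, WT_116, WT_213 and WT_220 and at 4.86, 9.31 and 7.86 FPKM in Med23 CKO KO_117, KO_214 and KO_218. All 3 Med23 CKO values lay within the range of the controls. Scn2b ran from 0.499 to 1.07 FPKM, with overlapping groups. Scn4b, which encodes the beta subunit linked to resurgent current, was below the filter, between 0.0407 and 0.685 FPKM.

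Cacna1h, a T-type channel gene that opens near the resting potential, led the alpha1 genes with between 34.4% and 58.7% of their summed FPKM. It was at 16.3, 12.8, 15.5 and 20.9 FPKM in controls WT_215, WT_116, WT_213 and WT_220, and at 27.8, 8.06 and 9.09 FPKM in KO_117, KO_214 and KO_218. KO_214 and KO_218 lay below all controls and KO_117 above them. The log2 fold change was -0.31 ± 0.41 (SE; exact permutation p = 0.543), and it rested on single libraries: without KO_117 it was -0.84 and passed an unadjusted p of 0.05 in limma, without KO_214 it was -0.0057 and without KO_218 it was -0.08. Without WT_220 it was -0.19. Cacna1a, the P/Q-type gene of presynaptic terminals, was steadier, between 7.24 and 8.43 FPKM in controls and at 6.43, 8.74 and 5.70 FPKM in Med23 CKO. The L-type genes Cacna1c and Cacna1d ran from 1.52 to 4.91 and from 1.60 to 4.88 FPKM, and the N-type gene Cacna1b from 0.915 to 2.71 FPKM. Below the filter lay the T-type genes Cacna1g (0.146 to 0.668 FPKM) and Cacna1i (0.00492 to 0.184 FPKM), the R-type gene Cacna1e (0.129 to 0.600 FPKM), and the L-type genes of skeletal muscle, Cacna1s, and of the retina, Cacna1f, each at most 0.0420 FPKM. The T-type genes made up between 37.0% (KO_214) and 60.2% (KO_117) of the summed alpha1 FPKM, and the P/Q-type gene between 13.6% (KO_117) and 37.3% (KO_214), so both extremes were in Med23 CKO libraries.

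**Figure D2:**
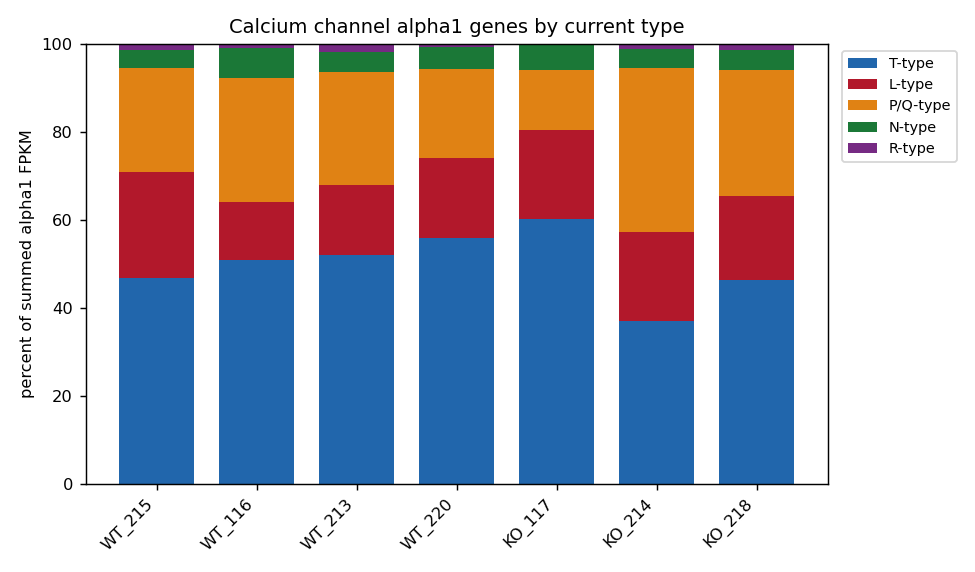
Percent of the summed FPKM of the 10 calcium channel alpha1 genes held by each current type, 1 bar per library, controls (WT) left and Med23 CKO (KO) right. T-type genes hold 60.2% in KO_117 and 37.0% in KO_214, with the controls between 46.9% and 55.8%.

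Cacna2d1 and the sum of the calcium channel beta genes were more even than the alpha1 genes. Cacna2d1, which encodes the main alpha2delta subunit and binds gabapentin drugs, was at 5.11, 5.40, 6.29 and 5.25 FPKM in controls and 6.06, 5.98 and 5.91 FPKM in Med23 CKO, a 1.23-fold range over all libraries and a log2 fold change of 0.10 ± 0.17 (SE; exact permutation p = 0.171). The other alpha2delta genes were lower, Cacna2d2 between 1.34 and 2.38 FPKM, Cacna2d3 between 0.775 and 1.88 FPKM and Cacna2d4, below the filter, at most 0.294 FPKM. The Cacna2d1 window in the set printed above is the GC-richest of the 4. The calcium channel beta genes summed to between 23.1 and 28.6 FPKM, although their make-up changed from library to library: Cacnb3 held between 28.5% and 67.3% of the sum. Cacnb3 was at 11.4, 8.10, 8.44 and 16.5 FPKM in controls and at 19.3, 8.84 and 6.58 FPKM in Med23 CKO, and its log2 fold change was -0.03 ± 0.39 (SE; exact permutation p = 0.971), a value that turned sign without WT_215, WT_220, KO_214 or KO_218. Cacnb4, a beta subunit gene of the brain, was at 6.36, 13.3, 10.2 and 1.83 FPKM in controls and 1.09, 8.60 and 11.7 FPKM in Med23 CKO, a 12.3-fold range (log2 fold change -0.26 ± 0.76, SE; exact permutation p = 0.686). It too was chosen after its values were seen, and its sign turned without WT_116 or KO_117. Cacnb1 was at 6.63, 2.83, 3.95 and 6.84 FPKM in controls and 6.81, 3.74 and 3.39 FPKM in Med23 CKO, and Cacnb2 ran from 1.39 to 2.89 FPKM. Cacnb3 was high where Cacnb4 was low, in WT_220 and KO_117.

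The gamma genes summed to between 91.3 and 242 FPKM. Cacng7, a TARP gene, was at 95.2, 69.9, 71.4 and 101 FPKM in controls and at 104, 55.4 and 70.2 FPKM in Med23 CKO, and its log2 fold change was -0.17 ± 0.26 (SE; exact permutation p = 0.629), turning to 0.04 without KO_214. Cacng4, also a TARP gene, was at 113, 11.2, 20.8 and 78.9 FPKM in controls WT_215, WT_116, WT_213 and WT_220 and at 68.7, 9.52 and 14.5 FPKM in Med23 CKO KO_117, KO_214 and KO_218. Each group held both high and low libraries, and the log2 fold change was -0.81 ± 0.94 (SE; exact permutation p = 0.514) for this gene, chosen after its values were seen. Without KO_117 it was -1.63 and without WT_116 -1.38, whereas it was -0.30 without WT_215, -0.47 without WT_220 and -0.27 without KO_214. Cacng8 ran from 6.59 to 34.6 FPKM with the same libraries high. Cacng5 stood apart from these, between 11.0 and 15.1 FPKM in the 7 libraries, and lies 79.9 kb from Cacng4 on chromosome 11. The TARP gene Cacng3 ran from 0.170 to 0.839 FPKM. Below the filter lay Cacng2, which encodes the TARP stargazin, at 0.0935 to 0.947 FPKM, the muscle subunit gene Cacng1 at 0.0720 to 0.554 FPKM, and Cacng6 at up to 0.407 FPKM. Cacng7 and Cacng8 lie 25.8 kb apart on chromosome 7.

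Of the 25 members tested, 9 had their 3 highest values in WT_215, WT_220 and KO_117 (Scn8a, Cacna1h, Cacna1c, Cacna1d, Cacnb3, Cacnb1, Cacng7, Cacng4 and Cacng8), which is 36% beside 26.1% of all genes tested. Another 5 had their 3 lowest values there (among them Scn3b, Scn2b, Cacnb4 and Cacng3), which is 20% beside 23.6% of all genes tested. The same orders were thus found in many genes of these libraries, at a share near that of the channel genes. The ratio of Cacng4 to Cacnb4 was 17.8, 43.2 and 63.1 in WT_215, WT_220 and KO_117, and between 0.837 and 2.05 in the other libraries. Cacng4 was chosen for its wide range and Cacnb4 for the opposite library order, so this split was set by the choice. WT_215, WT_220 and KO_117 were taken as the 3 libraries with the highest summed cycling markers. These sums were 752, 739 and 966 FPKM there and at most 545 FPKM in the others, a match fixed in advance. Olig1, a transcription factor of the oligodendrocyte lineage, was at 1361, 1943 and 1586 FPKM there and at most 603 FPKM elsewhere. Whether the cell make-up set these orders was not tested, and in bulk samples fewer cells of a type and less RNA per cell cannot be told apart.

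**Figure D3:**
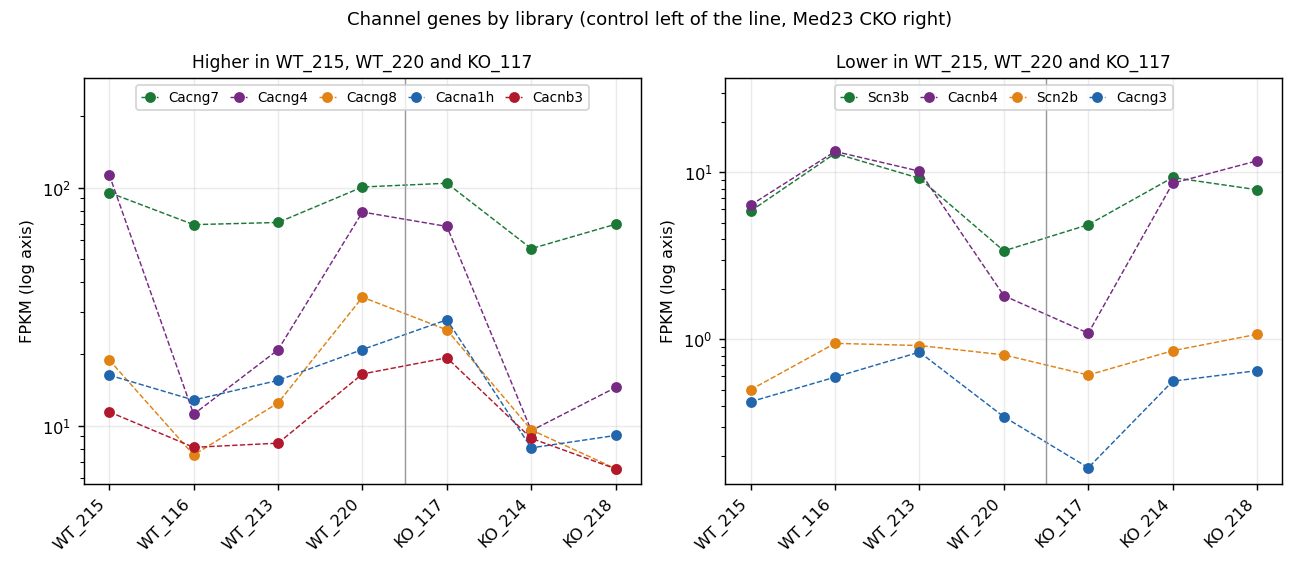
FPKM (log axis) of 5 channel genes that were highest (left) and 4 that were lowest (right) in WT_215, WT_220 and KO_117; dashed lines only join the points of a gene and imply no order among mice. Cacng4 is at 113 FPKM in control WT_215 and at 11.2 FPKM in control WT_116.

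Over the 25 members tested, 0 were higher and 1 was lower in the Med23 CKO libraries (limma, unadjusted p under 0.05), beside 0.502% and 0.996% of all 14151 genes tested. At an adjusted p under 0.05 there were 0 members, beside 0% of all genes tested in either direction. The median log2 fold change of the members was -0.09, against -0.03 over all genes tested, and 22 of 25 were under 0.5 in size. The standard errors ran from 0.17 to 0.94, with a median of 0.31. No member had all Med23 CKO values above or below all controls, beside 0.784% and 1.53% of all genes tested. Without KO_214, 14 of the members had higher means in Med23 CKO and 11 lower, against 8 and 17 with all libraries.

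**Figure D4:**
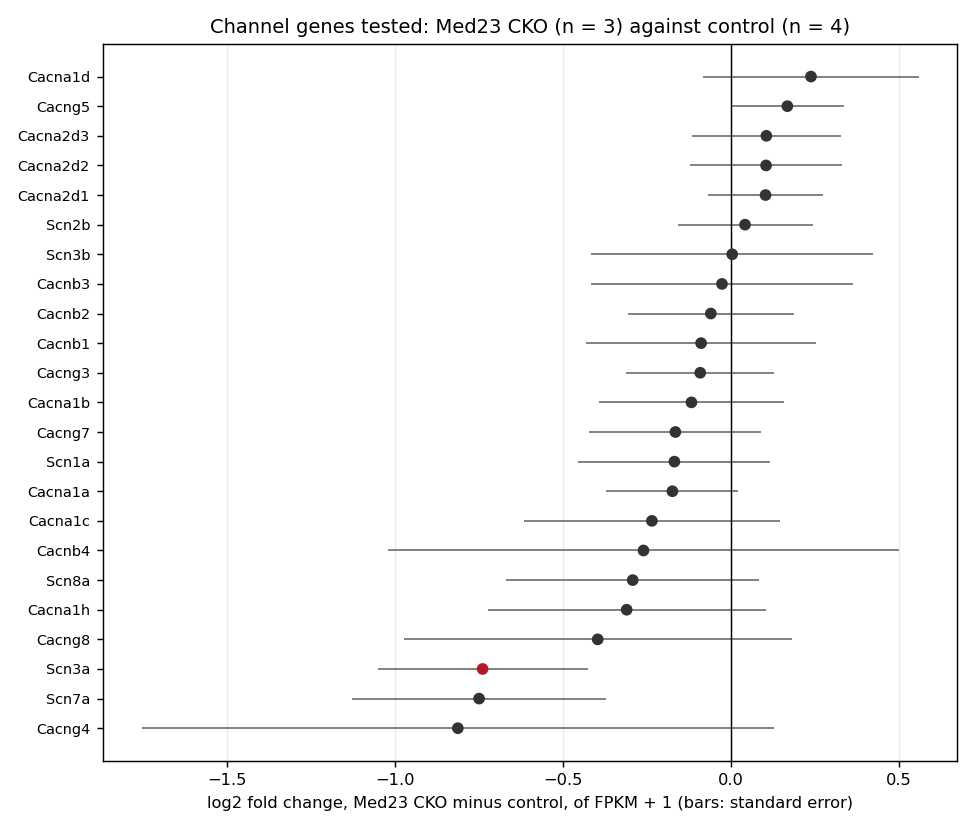
Log2 fold change of FPKM + 1, Med23 CKO minus control, for 23 of the 25 channel genes tested, with bars of 1 standard error. Scn3a (red) is the only gene shown with an unadjusted p under 0.05, and most bars cross 0.

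**Figure D5:**
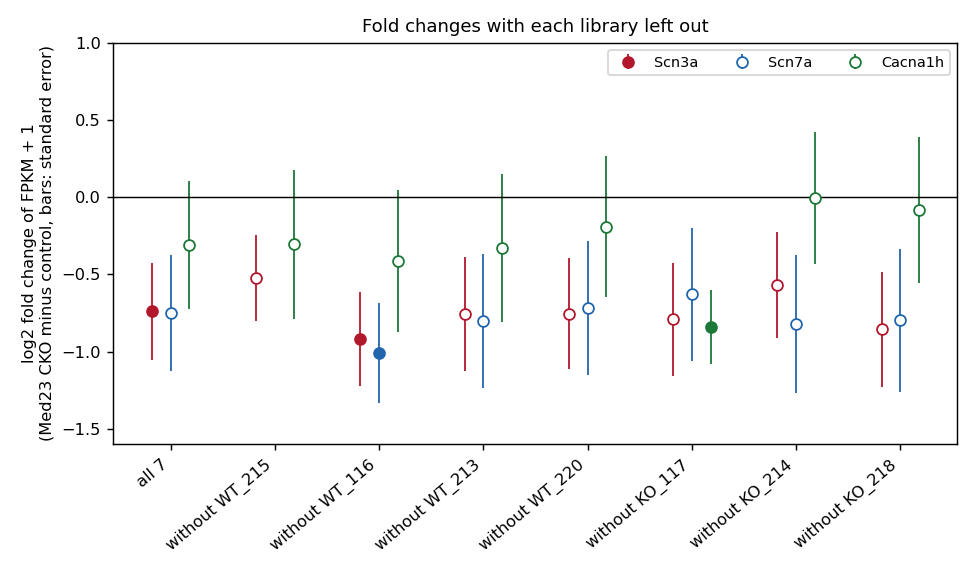
Log2 fold change of FPKM + 1 for Scn3a, Scn7a and Cacna1h with all 7 libraries and with each left out, with bars of 1 standard error; filled points have an unadjusted p under 0.05 in limma. Scn3a is filled with all libraries and without WT_116, and Cacna1h is filled only without KO_117. Scn7a is filled only without WT_116 and has no point without WT_215, where its mean was below 0.5 FPKM.

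Genes that act with the channels were read in the same fit. Of 15 sodium channel partners (FGF homologous factors, ankyrins and calmodulins among them) and 17 tested calcium channel partners, 0 passed an unadjusted p under 0.05 in limma, nor did any of the 4 tested genes of the sodium leak complex, the 8 repressors of neuronal channel genes, the 8 tested genes of store-operated entry and calcium release, or the 15 tested genes of calcium and sodium extrusion. By exact permutation, 2 sodium channel partners, named here after their values were seen, reached p = 0.0286, the smallest that test can give. Over all 14151 genes tested, 65 higher and 114 lower passed 0.05 in that test. Of all genes tested, 0.784% had every Med23 CKO value above every control value and 1.53% had every one below. Nedd4l, a ubiquitin ligase that acts on sodium channels, was at 4.17, 4.36, 3.85 and 3.24 FPKM in controls and at 6.63, 5.04 and 4.70 FPKM in Med23 CKO, all above the controls (log2 fold change 0.39 ± 0.20, SE). Sptbn4, a spectrin of nodes of Ranvier and axon initial segments, was at 1.29, 1.39, 1.46 and 1.34 FPKM in controls and at 1.21, 1.03 and 0.789 FPKM in Med23 CKO, all below the controls (log2 fold change -0.24 ± 0.18, SE). Ank3, which anchors sodium channels, had a log2 fold change of -0.14, Nalcn, the leak channel, -0.24 and Rest, a repressor of neuronal genes, -0.10. Of 10 AMPA receptor subunits and auxiliaries, the partners of the TARPs, 2 were higher and 1 lower at that threshold in limma, none of them in every setting with a library left out. Cnih2, an AMPA receptor auxiliary, was at 34.9, 46.2, 30.7 and 55.2 FPKM in controls and 17.7, 31.7 and 20.5 FPKM in Med23 CKO (log2 fold change -0.82 ± 0.28, SE; exact permutation p = 0.0857). Gsg1l, a further auxiliary, was at 0.275, 0.462, 0.420 and 0.649 FPKM in controls and at 2.56, 0.632 and 1.26 FPKM in Med23 CKO (log2 fold change 0.71, exact permutation p = 0.0571; 1.37 with a pseudocount of 0.1). Without KO_117 the log2 fold change of Gsg1l was 0.41 and did not pass an unadjusted p of 0.05 in limma. The control mean of Gsg1l was 0.452 FPKM and its Med23 CKO mean 1.48 FPKM. Gsg1l thus reached the filter of 0.5 FPKM only through the Med23 CKO libraries, so its pass is no support for a difference. Gria4, an AMPA receptor subunit, had a log2 fold change of 0.65 (exact permutation p = 0.114). For each of these 3 genes the groups overlapped in 1 or more libraries.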

How the data were processed

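The data are 7 RNA libraries, each of neurospheres from 1 mouse (4 control, 3 Med23 CKO), grouped by sample title. Alignment to mm10 was with TopHat, and the authors took FPKM from Cuffdiff and deposited FPKM per library beside group means. The deposited table also holds the authors' own comparison (log2 fold change, test statistic, p-value, q-value), which was not used. FPKM is not a count; low values fell on no whole-read steps, so depth is unknown and precision is limited by how few libraries there are.

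Values were tested as log2(FPKM + 1), pseudocount 1, for genes with a mean of at least 0.5 FPKM, with limma 3.58.1 (lmFit, eBayes with trend, two-sided, Benjamini-Hochberg) in R 4.3.3, and for single genes by exact permutation over 35 splits, where the smallest p is 0.0286. Fold changes understate low genes. The script was tested on simulated data with 200 changed genes. Members and lists were chosen with earlier results of these data known, and the members' fold changes named are those with an unadjusted p under 0.05, no overlap, a change of at least 1 or the highest mean of their class; Scn7a, Cacng4 and Cacnb4 were added after their values were seen. Alternatives were a pseudocount of 0.1, other filters and normalizations, limma without trend, robust (statmod 1.5.0) or with array weights, exact permutation per gene, the leading digit of the mouse number as covariate, a ratio of group means and each library left out; a covariate of Xist was chosen after seeing the data. Promoters are from RefSeq on GRCm38.p6, checked against GENCODE M21: 18 of the 25 members tested have a window in that table, and only the 10 windows clear of annotated exons, of 8 members, with a start within 10 bases in GENCODE M21 were eligible for printing. Some single genes are not reported here, though they remain in the counts and class sums.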

Additional observations from a re-analysis of the deposited data

Results flagged for a closer look

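Cacnb2, a calcium channel beta subunit gene, was at 2.89 FPKM in control mouse WT_213 and between 1.45 and 1.55 FPKM in the other controls. On the log2(FPKM + 1) scale the gap to the nearest value was 0.911 of the group's range, above the critical value of 0.829 for 4 samples. Of 25 control groups examined this was the 1 that passed, and chance passes about 1 in 20. Med23 CKO values of Cacnb2 were 1.48, 2.26 and 1.39 FPKM.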

How the results depend on the processing

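No paired analysis was made, since the groups are different mice and the labels do not name their litters. The 1 member lower in Med23 CKO (Scn3a) became 0 with no filter, a mean of at least 1 FPKM, quantile normalization, median centring, robust limma, exact permutation, the leading digit covariate and the Xist covariate, and 2 with array weights (Scn3a and Cacna1h, -0.63). With each library left out it ran from 0 to 2, the higher count stayed at 0, and Scn3a ranged from -0.92 to -0.52. Members above without overlap numbered 1 under quantile normalization and centring, and 0 to 1 with a library left out, those below 0 to 2. Among partners (2 higher, 1 lower), the higher count was 1 with no filter, a mean of at least 1 FPKM, quantile normalization, centring, exact permutation and the leading digit, and 0 with the Xist covariate. By exact permutation the calls were other genes, Nedd4l higher and Sptbn4 lower, and Cnih2, Gsg1l and Gria4 did not pass. The lower count was 2 with no filter and 6 with array weights. With a library left out they ran from 0 to 2 and from 0 to 5. Over all genes tested, 140 were higher with no filter, 193 higher and 887 lower with array weights, and 93 lower with the Xist covariate. With a library left out, 44 to 362 were higher and 71 to 410 lower. Some small fold changes turned sign. With array weights Cacnb4 was 0.28, and as a ratio of group means Cacnb3 was 0.0528. With each library left out, the log2 fold change ran from -0.76 to 0.54 for Cacnb4 (above 0 without WT_116 and without KO_117), from -0.44 to 0.27 for Cacnb3 (above 0 without WT_215, WT_220, KO_214 or KO_218), from -0.41 to 0.0412 for Cacng7, from -0.56 to 0.0618 for Scn8a, from -0.33 to 0.0078 for Ank3 (each above 0 without KO_214) and from -0.29 to 0.0052 for Rest (above 0 without KO_117 or KO_218). The cause was not tested.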
